A study of Rattus norvegicus with 8 samples.

Results

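Developmental skeletal muscle genes are transcribed while muscle fibres form, in the embryo, around birth and during repair, and most are shut down once a fibre is mature and innervated. The 10 genes described here were Myog and Myod1, which encode myogenic transcription factors, Tmem8c, the older symbol of the fusion gene Mymk, the acetylcholine receptor subunit genes Chrng and Chrna1, and the sarcomere genes Myh3, Myh8, Tnnt2, Actc1 and Myl4. They were taken by name from the 37209 gene rows of the deposited count table, and all 10 were found. The choice was made with their values in the graft and control libraries already known, so their levels and graft to control differences are given as a description, without a test. Of the 10 genes, 5 passed the filter on low counts (Myh3, Myh8, Tnnt2, Actc1 and Myl4), and they could pass through the graft libraries alone.

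Bulk RNA of 8 veins was measured in the rat strain Sprague Dawley (SD), which is outbred: 4 grafts and 4 control veins, all taken 1 week after surgery. For the graft operation the left common carotid artery was divided and its ends turned over short cuffs, and the control was the animal's own jugular vein of the opposite side. No group carried a modified allele or an added agent, and the labels give neither age nor sex. The labels speak of pairs, but sample titles and source names number the veins differently, so the groups were treated as unpaired, and p-values measure the spread between these libraries only.

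Fibres form when myoblasts, the progeny of Pax7-expressing satellite cells, commit through MyoD and myogenin and fuse with the help of myomaker, the protein of Tmem8c. A new fibre makes embryonic and perinatal myosin (Myh3 and Myh8), cardiac-type actin (Actc1), cardiac-type troponin T (Tnnt2) and the embryonic light chain (Myl4), and carries acetylcholine receptors with a gamma subunit (Chrng) over its whole surface. Adult fibres replace these with other isoforms, and the gamma subunit gives way to epsilon (Chrne) at the synapse. Genes of this programme are controlled through E-boxes, the sequence CANNTG, which MyoD and myogenin bind together with an E-protein.

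Total counts per library ran from 5981520 to 16061189, and 3 counts, the limit that a count of 0 allows, corresponded to 0.182 to 0.56 CPM (counts scaled to a common library size). Smooth muscle and endothelial genes were present in every library, and many but not all were lower in the grafts. All 8 smooth muscle genes listed fell (edgeR), with Myh11 at 6001 to 9817 CPM among controls and 394 to 919 CPM among grafts, and 3 of 6 endothelial genes fell, Vwf from 1321 to 3583 CPM down to 393 to 649 CPM. Their part in the levels of the muscle genes was not tested. The extraction note names a brain region, yet among 10 neuronal and glial genes of the cortex Neurod6 had no counts in any library and Slc17a7 reached 0.225 CPM at most. Of the 3 tested, Stmn2, a gene of growing nerve fibres, rose from 2.39 to 4.11 CPM among controls to 8.01 to 45.2 CPM among grafts (edgeR adjusted p = 0.00136), while Syt1 (up to 3.09 CPM) and Camk2a (up to 2.91 CPM) did not pass. Aqp4, a water channel of astrocytes and also of fast muscle fibres, had 88 counts (7.36 CPM) in control 3 and at most 8 elsewhere. Libraries stood apart in skeletal muscle RNA before any grouping: the summed level of 30 adult skeletal muscle genes was 218, 205, 4466 and 1071 CPM in controls 1 to 4 and 3504, 130, 1620 and 3529 CPM in grafts 1 to 4. Control 3 was thus the control richest in adult muscle transcripts and graft 2 the graft poorest in them. In bulk RNA fewer cells of a type and less RNA per cell cannot be told apart.

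Promoters of 8 of the 10 genes were in the RefSeq table of build GRCr8, with 9 start sites because Tnnt2 has 2. Those of Myog, Chrng, Chrna1 and Myl4 are shown as examples of genes with E-boxes near the start that were high in grafts 1 and 4. Tnnt2, also high there, has a CANNTG 42 bases before its first start and is not shown. Myh8 and Actc1 were high in grafts 1 and 4 with no CANNTG in their windows. The examples were picked on both traits, and a link between E-boxes and graft levels was not tested. The windows hold the 250 bases before the start, 5′ to 3′ on the strand of the gene, at chr13:48297226-48297475 (plus) for Myog, chr9:95325734-95325983 (plus) for Chrng, chr3:78877354-78877603 (minus) for Chrna1 and chr10:89975900-89976149 (plus) for Myl4. Capitals mark every CANNTG.
Myog: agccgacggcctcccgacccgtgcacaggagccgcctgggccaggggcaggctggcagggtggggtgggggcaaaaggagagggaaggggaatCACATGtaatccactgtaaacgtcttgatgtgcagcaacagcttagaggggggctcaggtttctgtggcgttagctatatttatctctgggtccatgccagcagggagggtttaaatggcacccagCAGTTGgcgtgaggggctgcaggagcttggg
Chrng: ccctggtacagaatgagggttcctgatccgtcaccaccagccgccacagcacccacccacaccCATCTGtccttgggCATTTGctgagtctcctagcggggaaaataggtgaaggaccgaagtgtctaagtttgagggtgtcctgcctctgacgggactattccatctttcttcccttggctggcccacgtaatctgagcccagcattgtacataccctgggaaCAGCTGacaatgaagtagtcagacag
Chrna1: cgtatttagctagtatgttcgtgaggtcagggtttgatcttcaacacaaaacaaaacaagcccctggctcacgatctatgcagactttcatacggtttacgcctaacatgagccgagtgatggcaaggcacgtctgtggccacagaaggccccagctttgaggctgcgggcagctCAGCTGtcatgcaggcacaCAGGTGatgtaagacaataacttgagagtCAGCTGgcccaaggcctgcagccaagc
Myl4: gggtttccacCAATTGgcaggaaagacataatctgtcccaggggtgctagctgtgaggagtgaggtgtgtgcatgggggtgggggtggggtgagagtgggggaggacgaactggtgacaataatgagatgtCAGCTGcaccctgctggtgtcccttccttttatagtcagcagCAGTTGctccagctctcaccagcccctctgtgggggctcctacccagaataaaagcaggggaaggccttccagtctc

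CANNTG, which reads the same on both strands in this form, occurred in 7 of the 9 windows, and 65.5% of all 33469 promoters in the table also hold it. The narrower CAGCTG, one form of CANNTG and its own reverse complement, occurred in 4 of the 9 (Chrng, Chrna1, Myl4 and the first start of Tnnt2), against 12.0% of all promoters. In Chrng its first base lay 26 bases before the start, in Chrna1 75 and 27 bases, and in Myl4 119 bases. The promoter of Myog had CANNTG at 157 and 31 bases before the start. CATTCC, searched on both strands, was in 1 of the 9 windows (Tnnt2) and in 12.1% of all promoters. Neither the MEF2 motif (YTAWWWWTAR) nor the CArG box (CCWWWWWWGG) had a match in these 9 windows, against 2.96% and 1.5% of all promoters. In these strings Y is C or T, W is A or T, and R is A or G. Only full matches were counted, so a site that departs from the string by a single base is missed, and these windows may hold such sites. A match is only a stretch of letters, and the share of matches was not tested.

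The myogenic factors came first in the order of roles. Myog, which encodes myogenin and drives differentiation, had no counts in controls 1, 2 and 4, 3 counts (0.251 CPM) in control 3, and 6.8, 0.0751, 2.48 and 5.52 CPM in grafts 1 to 4. Grafts 1, 3 and 4 lay above every control, while graft 2, with 1 count, lay below control 3. Over the groups, 230 graft counts stood against 3 control counts, a ratio of 53.9 after scaling (95% exact interval 18.2 to 263, counting error only). Myod1, which encodes MyoD and acts in myoblasts before myogenin, went another way. Its highest level was in control 3, at 0.837 CPM (10 counts), with no counts in the other controls, and grafts 1 to 4 had 0.607, 0.15, 0.08 and 0.321 CPM. The groups overlapped, and the means were 0.209 ± 0.418 CPM (SD, n = 4) in the controls and 0.29 ± 0.235 CPM (SD, n = 4) in the grafts. Myod1 was the only one of the 10 genes for which grafts 1, 3 and 4 did not all exceed every control.

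Tmem8c encodes myomaker, a membrane protein of myoblasts needed for their fusion. Tmem8c had no counts in any control and none in graft 2, and 1.46, 0.64 and 1.35 CPM in grafts 1, 3 and 4 (24, 8 and 21 counts). Pooled over the grafts, its level was at least 12.4-fold higher than 3 counts over the whole control group. This bound allows for counting error in the controls only and does not hold for graft 2 by itself. Mymx, its partner in fusion, was not matched to a row and is not analysed here.

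Acetylcholine receptor genes are widely transcribed along fibres before innervation and later mainly at the synapse. Chrng, the gamma subunit of the fetal receptor, had no control counts and 2.25, 0.225, 0.72 and 1.99 CPM in grafts 1 to 4. Pooled over the grafts, its level was at least 18.8-fold higher than 3 counts over the control group, a bound for counting error in the controls only. Graft 2 held 3 of the graft counts, so it was above the controls by no more than the limit of detection. Chrna1, the alpha subunit shared by the fetal and adult receptors, stood at 0, 0.299, 0.586 and 0 CPM across controls 1 to 4, then at 2.49, 0.0751, 0.8 and 1.35 CPM in grafts 1 to 4. The groups overlapped through graft 2, which lay below controls 2 and 3. Mean levels of Chrna1 were 0.221 ± 0.281 CPM for controls and 1.18 ± 1.02 CPM for grafts (SD, n = 4 each).

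The 5 sarcomere genes had the highest counts of the set. Myh3, the embryonic myosin heavy chain, was at 0.899, 0.797, 1.59 and 2.05 CPM across controls 1 to 4, then at 145, 2.03, 36.6 and 71.9 CPM in grafts 1 to 4. Graft 2 fell just short of control 4, and the other grafts were far above the controls. The group means were 1.33 ± 0.595 and 63.8 ± 61.0 CPM (SD, n = 4), and the fitted log2 fold change was 5.65 ± 1.08 (SE), or 4.86 without graft 1. Myh8, the perinatal myosin heavy chain, was at 1.27, 0.299, 1.17 and 0.187 CPM across controls 1 to 4, then at 48.8, 1.28, 26.1 and 82.3 CPM in grafts 1 to 4. Its groups did not overlap, but graft 2 exceeded control 1 only narrowly, and graft 4 rather than graft 1 was highest. For Myh8 the fitted log2 fold change was 5.58 ± 1.09 (SE), or 4.96 without graft 4.

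Actc1, the actin of heart and of fetal skeletal muscle, followed the same order of grafts as Myh8. Its levels were 0, 0.797, 1.76 and 0 CPM in controls 1 to 4 and 37.9, 0.451, 11.0 and 40.6 CPM in grafts 1 to 4, with graft 2 below controls 2 and 3. The fitted log2 fold change of Actc1 was 5.00 ± 1.28 (SE), and 6.27 without control 3. Myl4, the essential light chain of embryonic muscle and of the atria, had the highest control values relative to the grafts among these 5 genes. Controls 1 to 4 gave 2.17, 0.0996, 1.17 and 1.31 CPM, and grafts 1 to 4 gave 19.9, 1.2, 3.36 and 11.2 CPM, with a log2 fold change of 2.88 ± 0.90 (SE), or 2.15 without graft 1. Tnnt2, the troponin T of heart and of fetal skeletal muscle, differed from the other genes in graft 2. It stood at 0.15, 0, 0.837 and 0 CPM across controls 1 to 4, then at 7.04, 3.76, 5.28 and 4.24 CPM in grafts 1 to 4, so that all 4 grafts lay clear of the controls. Its fitted log2 fold change was 4.12 ± 0.74 (SE), and without control 3 it was 6.03. Actins and myosin heavy chains share long stretches of sequence, and how reads common to several copies were counted is not given in the sources used here.

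**Figure D1:**
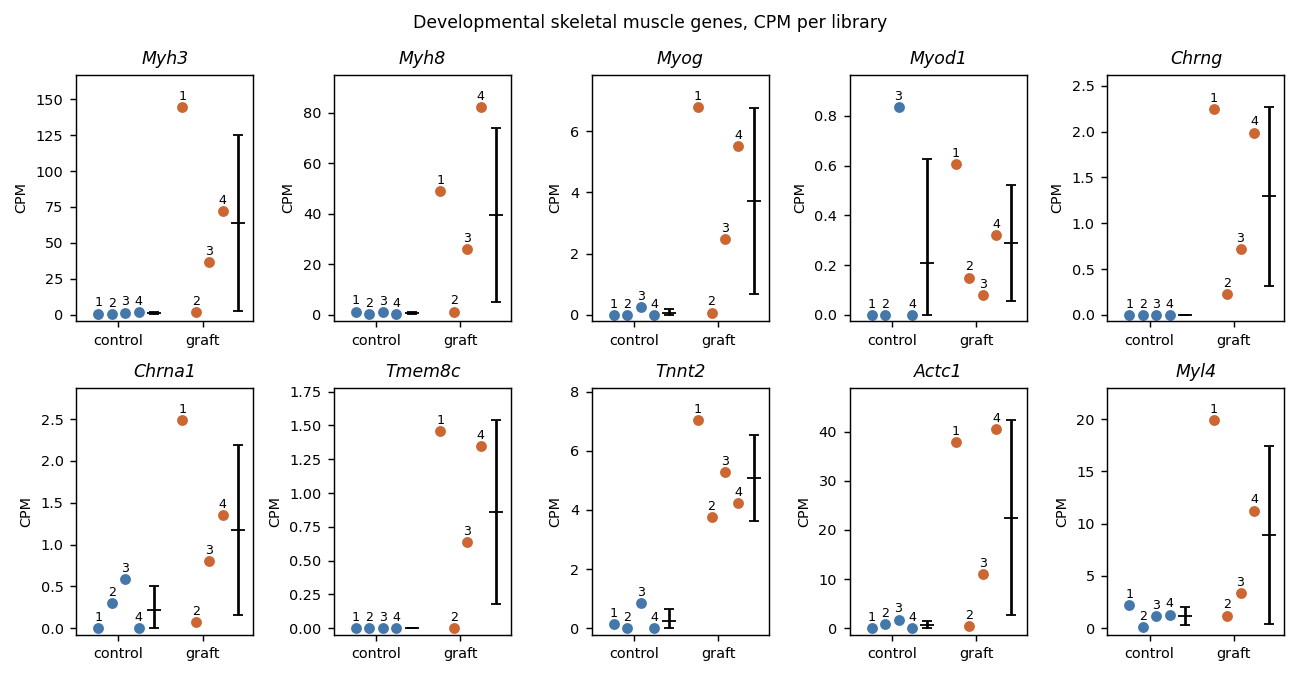
CPM of the 10 developmental skeletal muscle genes (y axis, linear, a separate scale for each gene) in control and graft libraries (x axis), 1 numbered point per library, with the mean and SD over 4 libraries beside each group (bars stop at 0 where the SD exceeds the mean). Grafts 1, 3 and 4 lie above the controls for 9 genes, graft 2 lies near the controls except for Tnnt2, and Myod1 is highest in control 3.

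Across the 10 genes, all 4 grafts lay above all 4 controls for 3 (Myh8, Chrng and Tnnt2), while 20.8% of the 15464 genes tested did so. Grafts 1, 3 and 4 lay above all controls for 9 of the 10, against 22.1% of the genes tested, a count made after the values were seen. The genes were picked on this contrast, so these shares are given only for reference. The shares cover genes that passed the filter on low counts, which 5 of the 10 members, Chrng among them, did not. Graft 1 was the highest library for 7 genes, graft 4 for 2 and control 3 for 1. Graft 2 was the lowest graft for 9 of the 10 genes, Myod1 being the exception. The median over the 10 genes of the difference in mean log2 CPM was 3.14. It was 2.64 without graft 1 and 3.77 without graft 2. With both graft 2 and control 3 left out it was 4.06.

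The members' profiles were compared by the root mean square difference of their log2 CPM over the 8 libraries, each gene centred on its own mean. Myh3 and Myog were close, with a difference of 0.72, and Chrng and Tmem8c closer still, with 0.42, although at such low counts log2 CPM is drawn toward the same floor. Myod1 stood farthest from the myosins, with 2.45 to Myh3 and 2.58 to Myh8. Among genes that are not members, the 8 nearest to the mean profile of the 5 tested members were Mybph (0.67), Tnnt1 (0.77), Trim72 (0.78), Sel1l3 (0.88), Cilp2 (0.95), Capn6 (0.96), Murc (0.98) and Igj (0.98). Mybph encodes a myosin-binding protein, Tnnt1 the slow skeletal troponin T, Trim72 a membrane repair protein of striated muscle and Murc a caveolar protein of muscle. These nearest genes were not all muscle genes. Igj, the immunoglobulin J chain gene, was at 0.56 to 5.1 CPM among controls and 8.26 to 51.4 CPM among grafts. Of these 8 genes, only Mybph and Tnnt1 are in the muscle lists used here. Absence from the lists, as for Trim72 and Murc, does not set a gene apart from muscle. The gene nearest to Myod1 was Eno3, the muscle enolase of the adult list, with a difference of 0.40. Nearest to Tnnt2 was Cd86, a costimulatory molecule of antigen-presenting cells, with 0.50: like Tnnt2 it was high in all 4 grafts, at 11.1 to 13.7 CPM, against 0.373 to 2.43 CPM among controls. The others lay nearest to Sel1l3 (Myh3 and Myog), Mybph (Myh8 and Actc1), Robo2 (Chrng), Clip4 (Chrna1), Ankrd23 (Tmem8c) and Myom3 (Myl4). In the gene order of GRCr8, Myh3 and Myh8 flank the adult myosins Myh2, Myh1 and Myh4, Chrng follows Chrnd directly, Myog lies near Mybph and Tnnt2 near Tnni1.

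**Figure D2:**
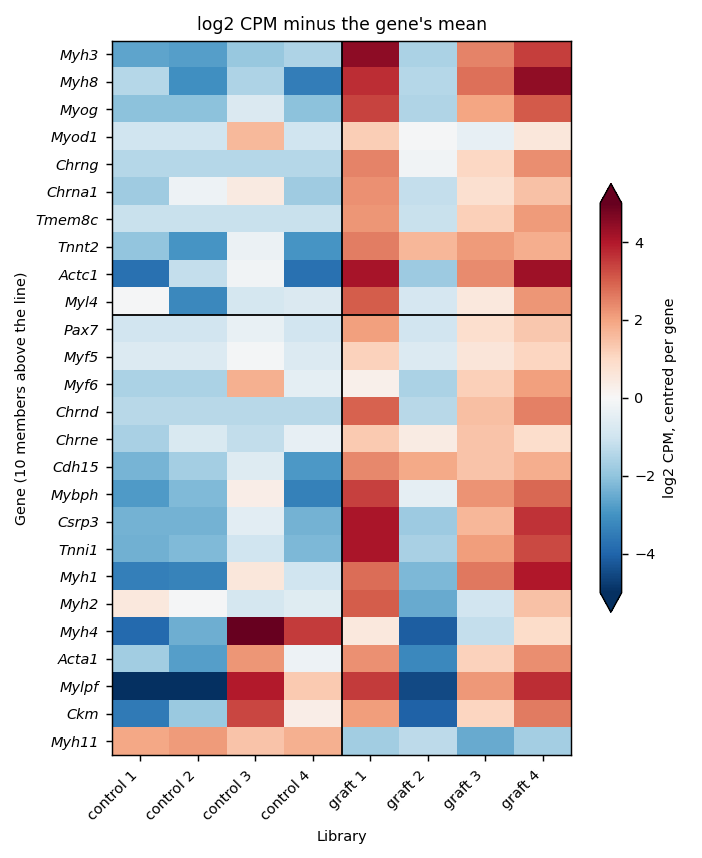
Centred log2 CPM (colour, red above and blue below the gene's mean over 8 libraries, colours ending at 5 either way) of the 10 members, above the line, and 16 other muscle genes, in control and graft libraries. All members but Myod1 are red in grafts 1, 3 and 4, and most are blue in graft 2, and Myh4, Mylpf and Ckm are strongly red in control 3, where Myod1 and Chrna1 are faintly red.

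The members were also set beside adult skeletal muscle genes, which differed among themselves. Mylpf, the light chain of fast fibres, was higher in control 3 (85.8 CPM, 1026 counts) than in graft 1 (61.9 CPM, 1020 counts) or graft 4 (69.7 CPM, 1085 counts). In those 3 libraries Myh3 had 19, 2384 and 1120 counts, and Myog 3, 112 and 86 counts. Chrng and Tmem8c had no counts in control 3, whereas Chrng had 37 and 31 counts in grafts 1 and 4 and Tmem8c 24 and 21. Control 3 thus had more Mylpf than these grafts in CPM, with similar counts, and less of those 4 members in CPM and in counts. Other adult genes went both ways: Myh4 was at 819 CPM in control 3 and at most 15.1 CPM in a graft, whereas Myh1 was at 37.4 CPM in control 3 and at 175, 154 and 406 CPM in grafts 1, 3 and 4. Actn2, with 10.0 CPM in control 3 and 47.5, 17.6 and 43.9 CPM in grafts 1, 3 and 4, and Sln, with no counts in control 3, were also lower there, so a lower level in control 3 was not particular to the members. Myod1, with 10 counts in control 3 and 10 and 5 in grafts 1 and 4, did not show that gap. Per 1000 counts of Mylpf, control 3 had 18.5 counts of Myh3, and grafts 1, 3 and 4 had 2337, 1489 and 1032. Myh8 gave 13.6 in control 3 and 789, 1062 and 1182 in those grafts, so the 2 myosins ran in opposite orders among the grafts. For Myog the figures were 2.92 in control 3 and 110, 101 and 79.3 in grafts 1, 3 and 4, a narrower range among the grafts than that of Myog's CPM. Control 4, with only 71 Mylpf counts, had 155 of Myh3, 14.1 of Myh8, none of Myog and 98.6 of Myl4 per 1000, the last near graft 3's 137. Controls 1 and 2 and graft 2 had too few Mylpf counts for such a ratio.

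Set against the summed counts of the 30 adult genes, the members had 2.06, 1.12, 0.184 and 0.331 counts per 100 in controls 1 to 4. In grafts 1 to 4 they had 7.76, 7.08, 5.37 and 6.26 counts per 100. The groups did not overlap in this ratio, which was chosen after the values were seen and uses the contrast on which the members were picked. Graft 2 was within the range of the other grafts here, but 50 of its 123 member counts were Tnnt2, and its 1737 adult counts included only 1 of Mylpf. Controls 1 and 2 had no Mylpf counts and few adult counts in all (2907 and 2056), so their ratios say little of muscle fibres. The part of skeletal muscle tissue in the members' levels was not tested.

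**Figure D3:**
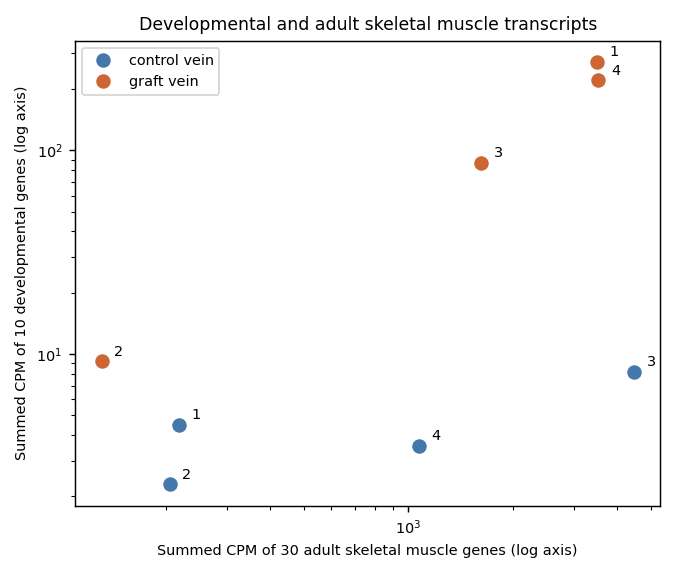
Summed CPM of the 10 developmental genes (y axis, log) against that of 30 adult skeletal muscle genes (x axis, log), 1 numbered point per library. Grafts 1, 3 and 4 lie at 87.0 to 272 CPM of developmental genes, while control 3, with the most adult muscle transcripts (4466 CPM), lies at 8.2 CPM.

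Myosin heavy chain counts were divided among the 6 sarcomeric genes Myh1, Myh2, Myh3, Myh4, Myh7 and Myh8, as shares of counts not corrected for transcript length. Myh3 and Myh8 together took 39.5%, 30.3%, 27.6% and 25.2% in grafts 1 to 4 (of 8078, 145, 2832 and 9535 counts). Their share in controls 1 to 4 was 9.15%, 6.29%, 0.319% and 1.96% (of 317, 175, 10350 and 613 counts). The exact 95% binomial interval was 23.0% to 38.5% for graft 2, the library with the fewest of these counts. Intervals cover counting error only, and the shares rest on genes picked for this contrast. Within the pair, Myh3 made up 74.8% in graft 1, 61.4% in graft 2, 58.4% in graft 3 and 46.6% in graft 4, so grafts 1 and 4 differed in which myosin led.

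The adult isoforms in the same libraries differed as well. Myh4, the fastest fibre myosin, took 94.6% of control 3 and 79.8% of control 4 but at most 2.76% of any graft. Myh1, another fast isoform, took 35.7%, 46.9%, 67.9% and 66.3% of grafts 1 to 4. Controls 1 and 2, with few myosin counts, had mainly Myh2 (80.1% and 73.1%), the myosin of fast oxidative fibres. Their 254 and 128 counts of Myh2 came with 11 and 30 counts of Ckm and none of Mylpf. Graft 2 had 7 counts of Ckm and 1 of Mylpf. The myosin shares of controls 1 and 2 and graft 2 thus say little of muscle fibres. Myh7, the slow and cardiac myosin, had 40 counts in graft 1, 0.495% of its total, and 0 to 5 counts elsewhere.

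**Figure D4:**
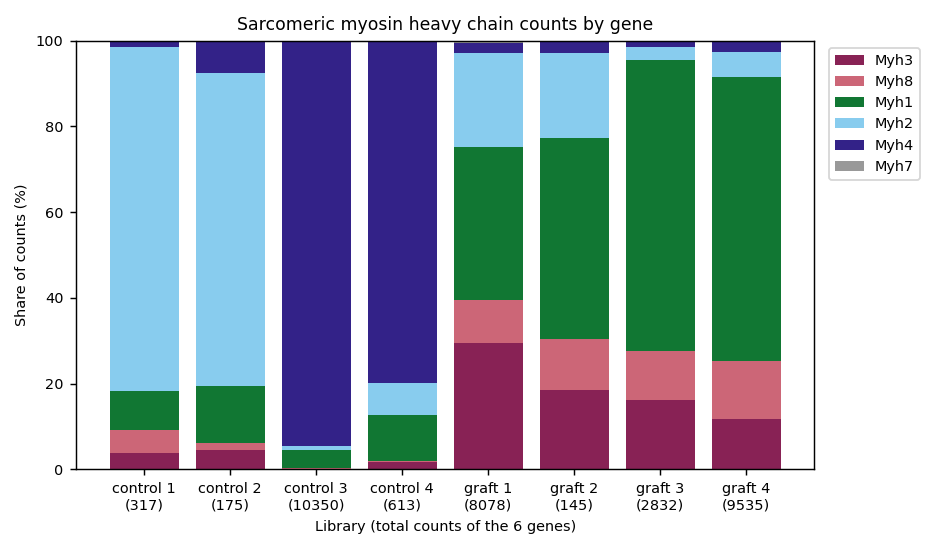
Share of counts (y axis, percent) of 6 sarcomeric myosin heavy chain genes in each library (x axis, with the total counts of the 6 genes in brackets). Myh3 and Myh8 make up 25.2% to 39.5% of the grafts and 0.319% to 9.15% of the controls, where Myh4 (controls 3 and 4) or Myh2 (controls 1 and 2) leads. Controls 1 and 2 had no counts of Mylpf and graft 2 had 1, so their shares say little of muscle fibres.

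The receptor subunits gave a similar comparison at lower counts. Of Chrng and Chrne counts together, Chrng had 37 of 73 in graft 1, 3 of 18 in graft 2, 9 of 39 in graft 3 and 31 of 56 in graft 4, or 50.7%, 16.7%, 23.1% and 55.4%. In controls 1 to 4 Chrng had 0 of 2, 4, 3 and 3 counts, too few to bound the share, since even 0 of 4 has an exact 95% interval up to 60.2%. Chrne, the adult epsilon subunit and no member, rose in the grafts by 2.53 ± 0.48 log2 units (SE; edgeR adjusted p = 0.00252). Its range was 0.15 to 0.56 CPM for controls and 1.13 to 2.4 CPM for grafts, without overlap, so the adult subunit was also higher. Chrnd, the delta subunit, had no counts in the controls or graft 2 and 3.09, 1.04 and 2.31 CPM in grafts 1, 3 and 4, and did not pass the filter on low counts.

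Other genes of muscle formation came from lists that exclude the members and were tested in the fit over all 15464 genes. In that fit 21.0% of genes were higher in the grafts and 21.3% lower at an edgeR adjusted p under 0.05, with a median log2 fold change of 0.01. Library totals without TMM factors moved that median to 0.23 and gave 4558 higher and 2164 lower genes in place of 3250 and 3288. Of 20 regulators of myogenesis 15 were tested, of which 4 rose and 1 fell, with a median of 0.20. The satellite cell factor Pax7 was not tested: it had no counts in controls 1, 2 and 4 or graft 2, 1 count in control 3, and 1.15, 0.4 and 0.642 CPM in grafts 1, 3 and 4. Myf5, an early myogenic factor, showed the same pattern with at most 0.425 CPM. Myf6, the factor of mature fibres, had 1.51 CPM in control 3, above grafts 1 and 3 but below graft 4 (1.86 CPM). It thus resembled Myod1 in part, although Myod1 was highest in control 3.

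Tcf3, which encodes E-protein partners of MyoD and myogenin, rose by 1.03 ± 0.18 log2 units (SE; edgeR adjusted p = 0.00142), from 29.1 ± 6.23 to 59.7 ± 9.07 CPM (SD, n = 4). Met, the receptor for hepatocyte growth factor, fell by 0.97 ± 0.20 (SE; edgeR adjusted p = 0.00455). Both genes are also active in many other cells. Mef2c, a partner of the myogenic factors, had a log2 fold change of 0.20 and did not pass (edgeR adjusted p = 0.485). Of the 4 that rose, Six4, Eya4 and Id3 missed the threshold in at least 1 fit with a library left out. Six4 missed it when control 1, 2 or 4 or graft 1 or 2 was omitted. Eya4 missed it in every such fit but that without graft 4, and Id3 in every one but that without control 1. The number that rose was 1 to 3 in those fits. With the replicate number as a block, Six4 (edgeR adjusted p = 0.0874) and Eya4 (0.123) also missed it.

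Of 16 fusion and adhesion genes 14 were tested, of which 5 rose and 3 fell, with a median of 0.15. Cdh15, the M-cadherin of myoblasts and satellite cells, rose by 4.12 ± 0.61 log2 units (SE; edgeR adjusted p = 0.000637). Cdh15 stood at 0.0749, 0.199, 0.586 and 0 CPM across controls 1 to 4, then at 6.07, 4.21, 3.04 and 4.04 CPM in grafts 1 to 4, so unlike most members it was high in graft 2. Ncam1, an adhesion molecule of new and denervated fibres and of nerve and Schwann cells, rose by 3.34 ± 0.34 (SE; edgeR adjusted p = 8.36e-05) and was also high in graft 2, at 388 CPM. Myof, a membrane protein of fusing myoblasts and many other cells, rose by 1.14 ± 0.12 (SE; edgeR adjusted p = 0.000125). Among those that fell were Itga7, the laminin receptor of skeletal and smooth muscle, by 1.09 ± 0.13 (SE; edgeR adjusted p = 0.00016), and Jam3, by 1.09 ± 0.13 (SE; edgeR adjusted p = 0.000232). Cav3, the caveolin of muscle, rose by 2.19 ± 0.71 (SE; edgeR adjusted p = 0.0322) but missed the threshold without graft 1, graft 4, control 1 or control 2 (adjusted p up to 0.0969), and with the replicate number as a block (0.0799).

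Of 12 synaptic genes 11 were tested, and 2 rose, Chrne and Etv5, a transcription factor of the Ets family, while 0 fell (edgeR; 0 at an unadjusted p under 0.05, and 0 by DESeq2). Chrnb1, the beta subunit of both receptors, had a log2 fold change of 0.21 (edgeR adjusted p = 0.71), and Musk, the kinase that gathers receptors at the synapse, -1.15 (edgeR adjusted p = 0.111). Etv5 missed the threshold with controls 3 and 4 left out (edgeR adjusted p = 0.0635) and with graft 2 and control 3 left out (0.0693). The number that rose was 4 of 12 tested without control 3.

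Of 19 genes known from new or denervated fibres 12 were tested, of which 4 rose and 1 fell, with a median of 0.91. Mybph rose by 3.97 ± 1.04 log2 units (SE; edgeR adjusted p = 0.0127), with 18.0, 1.05, 7.84 and 11.9 CPM in grafts 1 to 4 and at most 1.92 CPM in the controls (control 3). Tnnt1 rose by 3.92 ± 0.88 (SE; edgeR adjusted p = 0.00613). Both had graft 2 near the controls, as the members other than Tnnt2 did. For Tnnt1, graft 2 (1.28 CPM) still lay above every control (at most 0.837 CPM). Runx1, a transcription factor raised in denervated muscle and also active in leukocytes and many other cells, rose by 3.94 ± 0.21 (SE; edgeR adjusted p = 1.21e-05) and was as high as 188 CPM in graft 2. Fbxo32, a ubiquitin ligase of muscle wasting, fell by 1.02 ± 0.18 (SE; edgeR adjusted p = 0.00164). The slow troponin gene Tnni1 and Csrp3, a stress-responsive muscle protein, did not pass the filter: Tnni1 had 27.5, 0.376, 6.88 and 16.1 CPM in grafts 1 to 4 and at most 0.669 CPM in the controls, and Csrp3 14.0, 0.0751, 2.48 and 9.95 CPM against at most 0.418 CPM. The number that rose was 9 without control 3, 8 without graft 2 and 7 without control 1 or control 4, each out of 16 tested rather than 12. With graft 2 and control 3 left out it was 10 of 16 tested. Over all genes, 18.3% rose and 17.7% fell without control 3, 18.0% and 17.3% without graft 2, and 15.1% and 13.9% with both left out.

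Adult skeletal muscle genes as a group did not separate graft from control in the fit of all 8 libraries, but this depended on the libraries used. Of 30 listed 27 were tested, of which 2 rose, 1 fell and 24 missed the threshold, and their median was 0.33. Myh1 rose by 3.76 ± 1.20 log2 units (SE; edgeR adjusted p = 0.0307) and Actn2, the alpha-actinin of the sarcomere, by 2.85 ± 1.02 (SE; edgeR adjusted p = 0.048). Neither held in every fit with a library left out: both missed the threshold when control 1, 2 or 4 or graft 1 or 4 was omitted, and Actn2 also without graft 3 (adjusted p up to 0.11). Ldb3, a Z-disc protein that smooth muscle also makes, fell by 1.96 ± 0.24 (SE; edgeR adjusted p = 0.000246). Myh4, at 819 CPM in control 3 and 91.3 CPM in control 4 against 0.3 to 15.1 CPM in the grafts, had a log2 fold change of -4.90 ± 1.89 (SE) and did not pass (edgeR adjusted p = 0.0623). Without control 3, 8 of 28 adult genes rose. With controls 3 and 4 left out, 12 of 28 rose, with a median of 4.39, while 15.4% of all genes rose. With graft 2 and control 3 left out, 15 of 28 rose, with a median of 3.19. Leaving out graft 1 or graft 4 left 0 by edgeR (2 in each case at an unadjusted p under 0.05; DESeq2 was not run on these subsets), 4 rose without graft 2, and 1 rose without graft 3, control 1, control 2 or control 4.

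Because Tnnt2, Actc1 and Myl4 are also heart genes, heart muscle genes were counted. Of 21 listed 5 were tested, of which 0 rose (edgeR; 0 at an unadjusted p under 0.05, and 0 by DESeq2) and 1 fell, and in 5 no library had a count: Nkx2-5, Nppb, Myl7, Tbx5 and Bmp10. The summed level of the list was 128 to 258 CPM for controls and 32.1 to 105 CPM for grafts, carried mainly by Ryr2, Casq2 and Pln, which smooth muscle also makes. Myh6, the heart's alpha myosin, had at most 0.199 CPM in any library and Tnni3, heart troponin I, at most 0.642 CPM. Ryr2, a calcium release channel, fell by 2.81 ± 0.58 (SE; edgeR adjusted p = 0.00411). Mybpc3, the myosin-binding protein of heart, had no control counts and 0.364 to 1.52 CPM among grafts, and was not tested. Tnnc1, the slow and cardiac troponin C, was not tested either, with 0.187 to 0.586 CPM among controls and 0.676 to 5.28 CPM among grafts. With no low-count filter, 2 of 16 heart genes rose and 1 fell (edgeR), while 3515 of 24983 genes rose and 3176 fell.

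**Figure D5:**
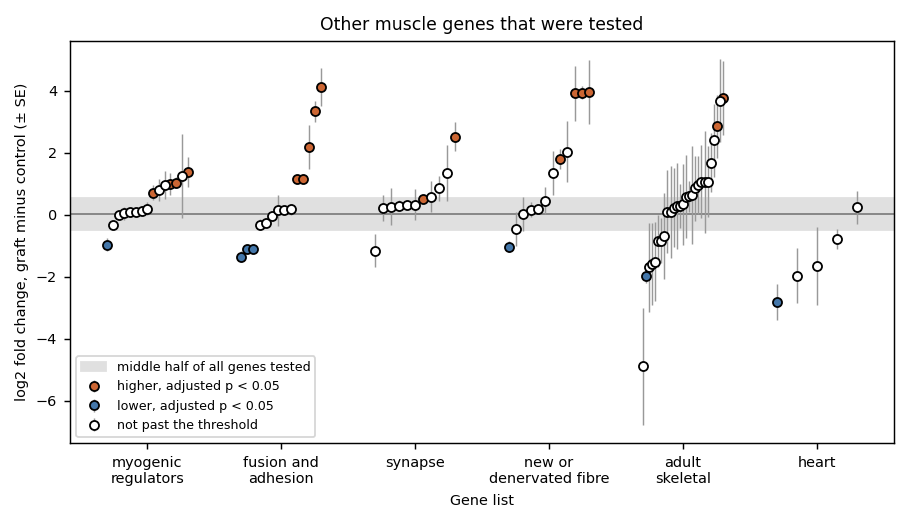
Log2 fold change, graft minus control, with its standard error (y axis) of each tested gene in 6 lists that exclude the members (x axis). Filled points passed an edgeR adjusted p of 0.05, open points did not, and the grey band holds the middle of all 15464 genes between their quartiles. Adult skeletal muscle genes have wide errors and 24 of 27 are open. Cdh15, Ncam1, Runx1, Mybph and Tnnt1 lie above 3, as do the adult genes Myh1 (filled) and Mb (open).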

How the data were processed

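Total RNA of 4 vein grafts and 4 control veins was sequenced. Reads were aligned with HISAT2 2.0.4 to Rnor_6.0 according to the notes of the submitters (per the submitters' processing notes). Which counter, annotation release and strand setting made the table is not given in the sources used here. It holds the authors' deposited whole-number counts per gene, 37209 rows, with no normalization found in them. Reads of antisense or near-identical genes may not be told apart.

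The software was R 4.3.3 and edgeR 4.0.16. The low-count filter was filterByExpr (minimum count 10), which left 15464, scaled by TMM factors, tested with glmQLFit and glmQLFTest, with Benjamini-Hochberg adjustment across every tested gene; the threshold was 0.05. CPM values use the TMM-scaled library size. Log2 CPM used for profiles has a prior count of 2. The standard error is the absolute log2 fold change over the square root of F. The procedure was tested on simulated data. Within groups, every pair of libraries exceeded sampling noise (chi-square per degree of freedom at least 21.8). DESeq2 1.42.0 was an alternative.

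Members and lists were chosen with earlier results of these data known. Named genes are all members, the first 4 of each list, its 2 called genes of smallest p in each direction and the 8 nearest profiles; those that bear on no result are covered by counts, and other genes named were chosen after their values were seen. Symbols were matched to the GRCr8 RefSeq table by current or older symbol, and Mymx and Xirp1 were not matched. Promoter sequences are RefSeq's, build GRCr8; no promoter of Myod1 or Tmem8c was used. 1 gene of the lists is counted but not reported here.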

Additional observations from a re-analysis of the deposited data

Results flagged for a closer look

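Among 28 groups of 4 values examined (members, summed lists and isoform shares, per group), 2 had 1 library apart from the others. Both were control 3: Myog at 0.251 CPM and Myod1 at 0.837 CPM. These are 3 and 10 counts. Controls 1, 2 and 4 had no counts of either gene, and with 3 values at 0 any count in the fourth library stands apart, so the usual rate of 1 in 20 by chance does not apply.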

How the results depend on the processing

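Fold changes of the 5 tested members kept their direction in every alternative that was run. Those of the other 5 members were not followed one by one. The median difference in mean log2 CPM over all 10 members ranged from 2.64 to 3.77 with 1 library left out. With DESeq2's size factors it was 3.14, and it was not computed for the DESeq2 test, the missing filter or the replicate block. Graft 2 and control 3 were left out together after the data were seen. Over all genes, calls with 1 library left out ranged from 2845 to 4054 higher and 2742 to 3786 lower, and lower genes numbered 2164 with library totals and 2163 with graft 2 and control 3 left out. With 1 library left out, calls ranged as follows: regulators 1 to 3 up and 1 to 2 down, synapse 2 to 4 up, new or denervated fibres 4 to 9 up, adult genes 0 to 8 up and 1 to 2 down, heart genes 0 to 1 up and 1 to 2 down. Regulators that rose numbered 2 with the replicate block, 2 with controls 3 and 4 left out and 2 with graft 2 and control 3 left out, and 2 fell with no low-count filter. New or denervated fibre genes that rose numbered 8 with no filter, 8 with controls 3 and 4 left out and 10 with graft 2 and control 3 left out. Adult genes that rose numbered 4 with no filter, 12 with controls 3 and 4 left out and 15 with graft 2 and control 3 left out, and 2 fell with DESeq2. Heart genes that rose numbered 2 with no filter, 1 with controls 3 and 4 left out and 1 with graft 2 and control 3 left out, and 2 fell with DESeq2 and 2 with the replicate block. More list genes also passed the filter in several of these fits, for example 16 new or denervated fibre genes in place of 12; the cause of the moves was otherwise not tested. Same-numbered libraries had correlations of deviations from -0.07 to 0.18, and 1 of 4 grafts correlated best with the control of its number, so the numbers were not taken to pair the samples, and which graft and control came from 1 animal is not known; the block gave 3042 higher and 2860 lower genes in place of 3250 and 3288. Of the other fits, all left the counts named here within 1.5 times. Mean shares of Myh3 and Myh8 ranged from 27.7% to 32.5% in the grafts and from 2.85% to 5.8% in the controls with 1 library left out, and those of Chrng from 30.1% to 43.0% in the grafts. With the last 150 bases of the promoters, 5 windows held CANNTG and 3 CAGCTG. Members with fewer than 100 counts in all (Myod1, Chrng, Chrna1, Tmem8c) are limited by depth.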

Other observations

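Several genes of slow fibres, which share some products with heart, had their highest counts in graft 1. Myl3, the slow light chain, had 65 counts in graft 1 and 0, 0 and 1 in grafts 2 to 4, and Myh7 had 40 against 0, 1 and 5. Tnnc1, the slow and cardiac troponin C, had 87, 9, 9 and 43 counts in grafts 1 to 4. Sln, a regulator of the calcium pump in developing muscle, had no counts in the controls or graft 2, and 3.64, 1.28 and 3.21 CPM in grafts 1, 3 and 4. Dlk1, an imprinted gene of fetal muscle and other fetal tissues, had 4.25, 0.3, 1.68 and 3.79 CPM in grafts 1 to 4 and 0 to 0.697 CPM in the controls. None of these genes passed the filter on low counts, and they are named after their values were seen.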
